A study of Mus musculus with 3 samples.

Results

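The genes examined here build cilia. They are the axonemal dyneins, the radial spoke proteins, the tektins, the intraflagellar transport (IFT) proteins, the Bardet-Biedl syndrome (BBS) proteins and the sperm-associated antigens. They were chosen by symbol, as the genes whose names begin with Dnah, Dnai, Dnal or Rsph, or with Ift, Bbs, Tekt or Spag and a number. Earlier results of these data were known when this rule was chosen. The rule took 58 of the 18193 genes on the array, read by 88 of the 34945 probe sets that were named by 1 gene. A further 2 probe sets were shared by near-identical members and are given on their own, while Dnah3, Dnah10, Dnah14, Spag11a and Spag11b, which also fit the rule, were not analysed here. The 58 genes were divided by what they are known to do. The motile class held 32 genes for the moving axoneme and its assembly, the general class held 22 Ift and Bbs genes used by all cilia, and 4 Spag genes belonged to neither.

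The samples were wild-type ICR mouse embryos at E7.5, dissected after enzyme treatment into endoderm, mesoderm and epiblast, the last with neuroectoderm and primitive streak. The extra-embryonic region had been cut away. RNA of each layer, 100 ng, was hybridised to 1 Affymetrix Mouse Genome 430 2.0 array, on which each transcript is read by 1 or more probe sets, groups of short probes. The sources do not give the number of embryos behind each array.

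A motile cilium beats because rows of dynein motors slide its outer microtubule doublets past each other, while radial spokes and a central pair of microtubules coordinate the bending. Tektins are filaments bound to the doublets. An immotile primary cilium lacks the motors and serves as an antenna for signals such as Hedgehog. Both kinds are built by IFT trains, in which the B complex carries cargo to the tip and the A complex returns it, and the BBSome moves membrane proteins out. In the mouse embryo at this stage motile cilia are known from the node, a pit at the distal tip whose cells lie in the outer surface next to the endoderm and whose beating sets left and right. Primary cilia are known from epiblast and mesoderm cells, whereas the visceral endoderm is known to lack them.

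Median intensities were close, between 79.9 and 82.2, on the 3 arrays. The upper quartile was higher in endoderm, at 319, against 276 in mesoderm and 269 in epiblast. Apart from Pax6, the marker genes of the layers lay with their labels. Endoderm had the highest Sox17 and Foxa2, mesoderm the highest Kdr and Foxf1 and epiblast the highest Sox2. Pax6, an epiblast marker, was 181 in endoderm, against 92.4 in mesoderm and 121 in epiblast. With 1 array per layer no difference has a replicate check, and p-values are not given. The error between readings of a gene was taken from 5536 genes with several probe sets. The pooled SD of their log2 differences was 0.40 for the endoderm over the epiblast, 0.27 for the mesoderm over the epiblast and 0.39 for the endoderm over the mesoderm. An intensity of 80.6, the median of the whole table, served as a floor. A gene was counted where its highest value exceeded the floor. It was called higher or lower at a difference of 2-fold or more in the deposited values, including those below the floor. A value below the floor is only a bound, so a fold stated against it was taken from the floor instead and is written as "at least". A called gene can therefore have a stated bound under 2-fold. Intensities of different probe sets cannot be ranked against each other. Each layer serves in 2 of the 3 comparisons, which are therefore not independent.

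Some genes of the radial spokes and tektins had a 2-fold excess in endoderm over epiblast, and none of the Ift and Bbs genes had. Of the 17 motile genes above the floor, 5 (29.4%) had a 2-fold or greater excess in endoderm and 0 were lower, against 12.5% higher and 4.01% lower among all 12785 genes above the floor. The 5 were Rsph4a, Rsph9, Tekt1, Tekt2 and Tekt4, so 2 of 5 spoke genes and 3 of 4 tektins above the floor. With dim values raised to the floor, Rsph4a and Tekt2 were still 2-fold higher, 2 of 17, against 11.3% of all genes, and 0 were lower, against 3.17%, so the count of firm differences was near that of genes at large. The median log2 difference of the 17 was 0.14, beside 0.05 for all genes above the floor, and it was -0.02 after quantile normalization, beside -0.11. A gene that passed the floor only through its level in endoderm had to differ, so the 15 motile genes below it are described too. In bulk tissue, fewer expressing cells and less RNA per cell cannot be told apart.

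Rsph4a, a protein of the spoke head without which spokes are incomplete and cilia lose their planar beat, had the largest difference. It was 208 in endoderm, against 35.9 in mesoderm and 70.1 in epiblast. Only the endoderm value was above the floor, exceeding each of the others by at least 2.58-fold. Rsph9, another spoke head protein, was 116 in endoderm, against 40.5 in mesoderm and 46.7 in epiblast. This is dim throughout, and the bound is at least 1.44-fold. Rsph1, the third spoke head gene measured, had another pattern, at 273 in endoderm, against 113 in mesoderm and 247 in epiblast. All values were above the floor, endoderm and epiblast were within 1.10-fold, and mesoderm was the low layer, 2.42-fold below endoderm and 2.19-fold below epiblast.

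The other spoke genes were within 2-fold or below the floor. Rsph3a, of the spoke stalk, was 118 in endoderm, against 104 in mesoderm and 119 in epiblast. The probe set shared by Rsph3a and its near-copy Rsph3b was 736 in endoderm, against 516 in mesoderm and 419 in epiblast, an excess over epiblast of 1.76-fold, and which of the copies it read cannot be told. Rsph6a, a spoke protein of sperm, was 77.1, 76.3 and 94.5 in endoderm, mesoderm and epiblast. Rsph14 was below the floor in all layers, between 31.4 and 34.2.

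Among the tektins, Tekt2 was 168 in endoderm, against 35.3 in mesoderm and 77.95 in epiblast. The endoderm value exceeded both others, which were below the floor, by at least 2.08-fold. Tekt1 was 147 in endoderm, against 62.5 in mesoderm and 71.2 in epiblast, with an excess of at least 1.82-fold over either. Tekt4 was 95.2 in endoderm, against 45.3 in mesoderm and 45.4 in epiblast, a bound of at least 1.18-fold. Tekt1, Tekt2 and Tekt4 thus shared endoderm as the only layer above the floor. Tekt5 ran the other way, with 67.5 in endoderm, against 79.4 in mesoderm and 84.05 in epiblast, and Tekt3, known from sperm flagella, was between 37.2 and 41.2.

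**Figure D1:**
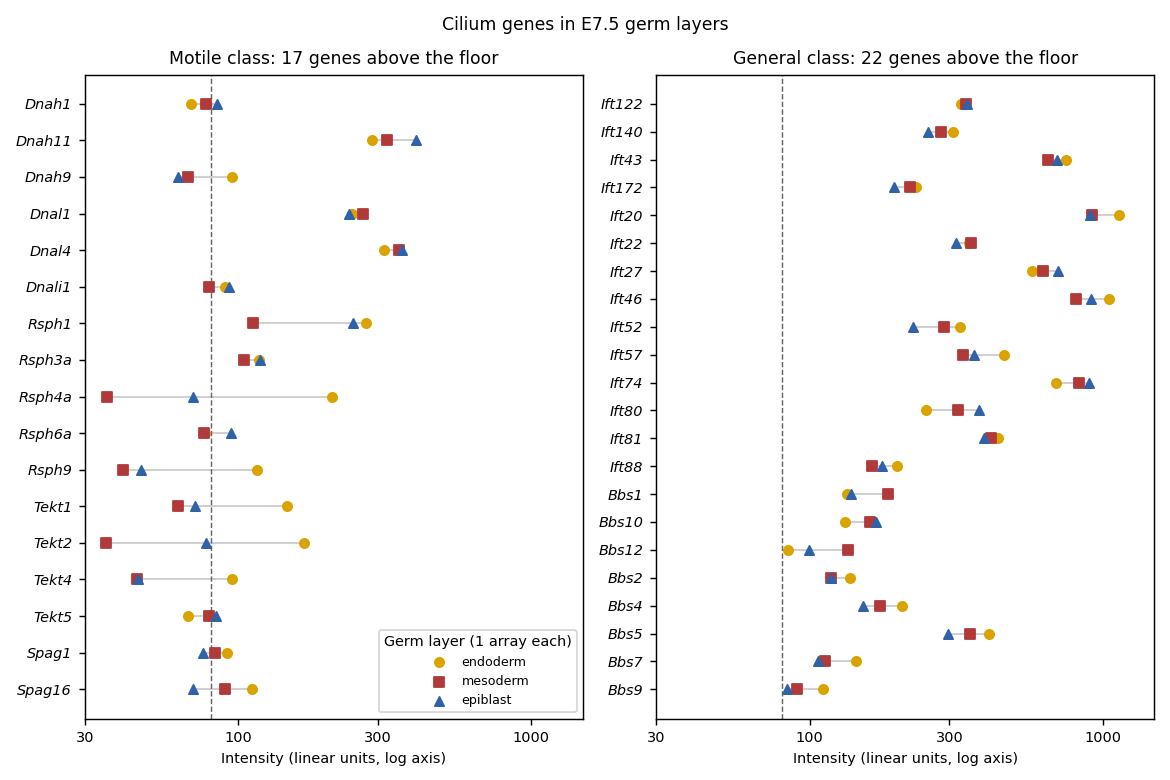
Intensity on a log axis of the 17 motile (left) and 22 general (right) cilium genes above the floor of 80.6 (dashed line), with 1 point per germ layer from 1 array each and no error bars, so points are to be compared within a row only. Rsph4a, Rsph9, Tekt1, Tekt2 and Tekt4 have endoderm to the right of the floor and the other layers to its left, while the general genes lie above the floor in all layers.

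Most of the motors could not be read. Of the 10 dynein heavy chain genes, 3 were above the floor and 0 differed by 2-fold, against 21.5% of all genes in any pair of layers, which is too few genes to set apart from the rest. Dnah11, the chain known for left-right determination at the node, was 286 in endoderm, against 322 in mesoderm and 406 in epiblast, so endoderm was its lowest layer. Dnah9, an outer arm chain, was 94.95 in endoderm, against 67.7 in mesoderm and 62.6 in epiblast, with the difference in the direction of the tektins but under 2-fold. Dnah1, of the inner arm, was 68.9, 77.6 and 84.4 in endoderm, mesoderm and epiblast.

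The other 7 heavy chain genes, among them Dnah5, the partner of Dnah11 or Dnah9 in the outer arm, lay between 27.7 and 80.56. Dnah17 came nearest to the floor, with 80.56 in epiblast. A 2-fold difference was seen in a probe set shared by Dnah7b and Dnah7c, near-identical inner arm genes. It was 148 in endoderm, against 57.9 in mesoderm and 48.02 in epiblast, in endoderm at least 1.84-fold above both. The probe set of the third copy, Dnah7a, was 39.75 in endoderm, against 29.3 in mesoderm and 33.2 in epiblast.

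The smaller dynein subunits above the floor were within 2-fold. Dnal1, a light chain of the outer arm, was 245 in endoderm, against 266 in mesoderm and 239 in epiblast. Dnal4 was 315, 354 and 363, and Dnali1, a light chain of the inner arm, was 90.2, 79.6 and 92.9 in the same order of layers. The outer arm intermediate chain genes Dnaic1 and Dnaic2 were below the floor, between 46.96 and 69.6.

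Of the Spag genes of the motile class, Spag16, a protein of the central apparatus, was 111 in endoderm, against 90.5 in mesoderm and 70.4 in epiblast, and Spag1, which helps to assemble dyneins in the cytoplasm, was 91.5, 83.6 and 76.2. Neither reached 2-fold. Spag6, Spag6l and Spag17, also of the central apparatus, and Spag8 were below the floor, at 47.85 or less. Spag6l was 46.4 in endoderm, against 23.6 in mesoderm and 29.4 in epiblast and Spag8 was 47.85, 22.1 and 31.6, but at this level no fold can be given.

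Between endoderm and mesoderm the same genes and Rsph1 were called. In endoderm 6 of the 17 motile genes (35.3%) were higher by 2-fold or more and 0 were lower, against 11.4% and 3.86% of all genes. With dim values raised to the floor 3 were higher, against 10.1%, namely Rsph1, Rsph4a and Tekt2, and 0 were lower, against 3.19%. The median log2 difference was 0.18 for the 17 genes and 0.07 for all genes. The bounds of Rsph4a, Rsph9, Tekt1, Tekt2 and Tekt4 were the same as against epiblast, since both other layers lay below the floor. Over the 17 genes the highest layer was endoderm for 52.9%, near the 47% among all genes.

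Between mesoderm and epiblast, Rsph1 and Tekt2 were the motile genes called, both lower in mesoderm, 2 of 17 (11.8%) against 3.25% of all genes, and 0 were higher, against 3.44%. For Tekt2 the values of both layers were below the floor, so that only Rsph1 was lower with dim values raised, 1 of 17 against 2.45%, and 0 were higher, against 2.9%. The median log2 difference was -0.19 over the 17 genes and -0.02 over all genes. Of the 17, 13 were negative and 4 positive, beside 6865 and 5920 of all 12785 genes. With dim values raised the median was 0.0, because genes below the floor in both layers are then set to no difference. In the further motile axoneme lists described below, 33 of 36 genes above the floor were negative and 3 positive, with a median of -0.21. Both medians were smaller than the spread between probe sets, 0.27, and this lean was not tested.

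**Figure D2:**
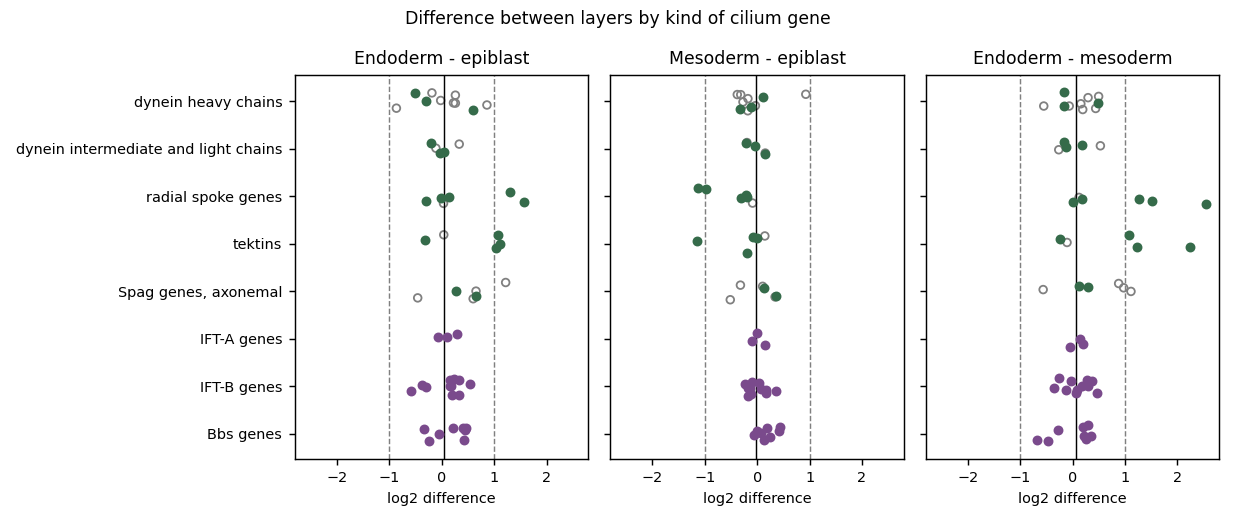
Log2 difference for each pair of layers by kind of cilium gene, with 1 point per gene, filled where the gene was above the floor and open where it was below, the motile kinds in green and the IFT and Bbs genes in purple. Dashed lines mark 2-fold and the solid line the median of all genes above the floor. Radial spoke genes and tektins reach beyond 2-fold, mostly against values below the floor, so that Rsph4a at 2.54 in endoderm against mesoderm is a bound of at least 2.58-fold, while IFT and Bbs genes stay between -0.68 and 0.54.

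The general class had no 2-fold difference. All 22 genes were above the floor in every layer, and 0 of 22 differed by 2-fold in any comparison, against 21.5% of all genes. The log2 differences of endoderm ran from -0.59 to 0.54 over epiblast and from -0.68 to 0.47 over mesoderm, and those of mesoderm over epiblast from -0.23 to 0.44. The medians were 0.19 and 0.16 for endoderm and 0.05 for mesoderm, beside 0.05, 0.07 and -0.02 for all genes. After quantile normalization the medians of endoderm were -0.03 and -0.05, beside -0.11 and -0.08 for all genes, so the sign depended on the scaling while the class stayed slightly above genes at large.

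Within the class, some genes leaned towards endoderm and others away from it. Ift20, an IFT-B protein that also resides at the Golgi, was 1133 in endoderm, against 920 in mesoderm and 903 in epiblast, and Ift46, of the B complex, was 1051, 810 and 913. Ift52, a core subunit of the B complex, was 326 in endoderm, against 288 in mesoderm and 225 in epiblast and had the largest excess in endoderm over epiblast, 0.54 on the log2 scale. Of the A complex, Ift43 was 747 in endoderm, against 650 in mesoderm and 699.6 in epiblast, and Ift122 was 329, 343 and 344. Lower in endoderm were Ift80, with 250 in endoderm, against 321 in mesoderm and 377 in epiblast, and Ift74, with 690, 828 and 897, both of the B complex. None of these differences reached 2-fold. The remaining IFT genes, Ift22, Ift27, Ift57, Ift81, Ift88, Ift140 and Ift172, lay between 164 and 703 and were within 2-fold too.

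Bbs4 and Bbs5, subunits of the BBSome, were 207 in endoderm, against 174 in mesoderm and 152 in epiblast, and 408, 354 and 297. Bbs7 and Bbs9 also had their highest value in endoderm, at 144 and 111. Bbs10 and Bbs12, chaperonin-like proteins that assemble the BBSome, were lowest there. Bbs12 was 84.5 in endoderm, against 135 in mesoderm and 99.7 in epiblast, and Bbs10 was 132, 161 and 168. The difference of Bbs12 between endoderm and mesoderm, -0.68, was the widest of the class. Bbs1 was 134, 185 and 139 in endoderm, mesoderm and epiblast, and Bbs2 was 137, 119 and 118. Over the 22 genes, the highest layer was endoderm for 14, mesoderm for 3 and epiblast for 5, beside 47%, 20.5% and 32.5% of all genes. The median range was 0.36 on the log2 scale, compared with 0.50 for the motile genes above the floor and 0.43 for all genes.

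The 4 Spag genes of neither class have no place in the axoneme, or none that is well known. Spag5, a protein of the mitotic spindle, was 534 in endoderm, against 704 in mesoderm and 675 in epiblast. Spag9, a scaffold of kinase signalling and vesicle transport, was 839, 859 and 655, Spag7 was 2240, 1610 and 1712, and Spag4 was below the floor. None differed by 2-fold.

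A second probe set could check only part of these values. Several probe sets read 21 of the 58 genes, but only 7 genes had several above the floor, 6 of the general class and Spag5. Of the 6 general genes, 5 had the same sign in all such probe sets between endoderm and epiblast, 4 between mesoderm and epiblast and 3 between endoderm and mesoderm. The largest gap within a gene was 0.63, for Ift81. The probe sets of Ift80 gave -0.64 and -0.59 for endoderm against epiblast, so its lean away from endoderm was repeated. The 6 motile genes that differed by 2-fold had 1 probe set each, so no second reading of them is at hand.

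**Figure D3:**
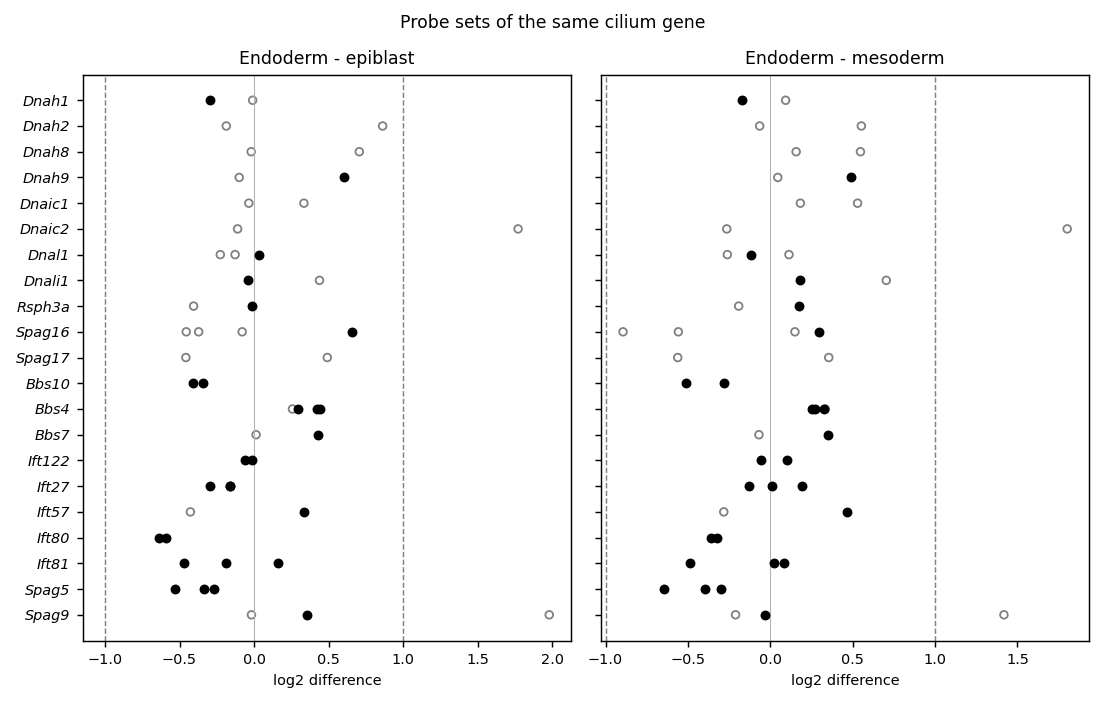
Log2 difference for endoderm against epiblast (left) and endoderm against mesoderm (right) of each probe set of the 21 cilium genes with several, filled where the probe set was above the floor of 80.6 and open where it was below, with dashed lines at 2-fold. Filled points of the same gene lie within 0.63 of each other, and the points beyond 2-fold, of Dnaic2 and Spag9, are all open.

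The genes around the class were read from lists of cilium genes outside the symbol rule, also chosen with earlier results of these data known. Foxj1, the factor that switches on the motile cilium programme, was 530 in endoderm, against 48.7 in mesoderm and 120 in epiblast. Its excess in endoderm was 4.41-fold over epiblast and at least 6.57-fold over mesoderm. It was read by 1 probe set. The factors of the RFX family, which act on genes of both kinds of cilia, were within 2-fold. Rfx3 was 620 in endoderm, against 631 in mesoderm and 735 in epiblast, and Rfx2 was 127, 132 and 143, although the other 3 probe sets of Rfx2 were below the floor. Myb, known from cells with many cilia but also from progenitor cells at large, was 61.1, 53.4 and 540 in endoderm, mesoderm and epiblast. Gli1, the target and effector of Hedgehog signals, was 50.2 in endoderm, against 145 in mesoderm and 61.55 in epiblast. Noto, the node factor upstream of Foxj1, was not analysed here.

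Some other axonemal genes were also higher in endoderm. Of 24 above the floor, among 39 measured, 9 had an excess of 2-fold or more in endoderm over epiblast and 12 over mesoderm (37.5% and 50%, beside 12.5% and 11.4% of all genes), with 0 lower in both comparisons. All 24 passed the floor in endoderm, but 10 did in mesoderm and 13 in epiblast. A gene that passed only through endoderm had to be higher there, so these shares are no test. With dim values raised to the floor 6 and 7 of the 24 were higher, beside 11.3% and 10.1% of all genes. The median log2 differences were then 0.46 and 0.62, in place of 0.80 and 1.15. The other 15 did not reach 2-fold over epiblast, and 5 of them, Mns1, Ccdc40, Nme7, Ak7 and Efhc2, had lower values in endoderm than in either other layer. Cfap52 and Enkur, proteins inside the doublet microtubules, were 361 in endoderm, against 28.6 in mesoderm and 90.9 in epiblast, and 194, 16.4 and 45.3. Over epiblast, Cfap52 was 3.97-fold higher in endoderm and Enkur at least 2.41-fold. Dynlrb2, a dynein light chain of the roadblock family, was 387, 36.1 and 69.6, with an excess in endoderm of at least 4.81-fold over the other layers. A second probe set of Cfap52 was below the floor.

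Among genes for dynein assembly and docking, 2 of 12 above the floor were 2-fold higher in endoderm against epiblast, and 2 against mesoderm (16.7% in both, near the 12.5% and 11.4% of all genes). With dim values raised only Zmynd10 remained in either comparison, 1 of 12, beside 11.3% and 10.1% of all genes. Zmynd10, an assembly factor, was 184 in endoderm, against 42.7 in mesoderm and 53.5 in epiblast, at least 2.28-fold higher. Ttc25, a docking factor, was 88.3, 24.9 and 34.6, at least 1.09-fold. Pih1d2, of a family of dynein assembly factors, was 126, 67.2 and 77.3 and stayed under 2-fold.

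The further lists of general cilium genes had members in both directions. Over 70 genes above the floor, counted once each, 4 were higher and 3 lower in endoderm than in epiblast (5.71% and 4.29%, beside 12.5% and 4.01% of all genes). In mesoderm 1 was higher and 0 lower than in epiblast (1.43% and 0%, beside 3.44% and 3.25%). In endoderm 4 were higher and 2 lower than in mesoderm (5.71% and 2.86%, beside 11.4% and 3.86%). The medians were -0.06, 0.01 and -0.08. Of 18 genes of the transition zone, the gate at the base of the cilium, 0 differed by 2-fold, against 21.5% of all genes in any pair of layers. Tmem107, with the widest range, was 1508 in endoderm, against 807 in mesoderm and 1143 in epiblast.

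Some single genes stood out. Wdr35, a subunit of the A complex, was 924 in endoderm, against 431 in mesoderm and 255 in epiblast, an excess over epiblast of 3.62-fold, whereas Ttc21b, of the same complex, was 222, 363 and 420. The other probe set of Wdr35 was below the floor. Ttc30b, of the B complex, was 256, 85.7 and 100.5, and Rab3ip, an exchange factor that recruits membrane to the growing cilium, was 1696, 379 and 736 in endoderm, mesoderm and epiblast. Rab11a, a small GTPase of recycling endosomes with roles beyond cilia, was 2.98-fold higher in endoderm than in epiblast. In the other direction, Adcy3, an adenylyl cyclase of primary cilia, was 89.2 in endoderm, against 569 in mesoderm and 239 in epiblast, and Evc, which acts in Hedgehog signalling at the base of the cilium, was 68.8, 127 and 151. The 4 probe sets of Adcy3 differed in size, and 1 of them was level at 134, 145 and 139. Of the genes for left-right sensing, Invs was 107 in endoderm, against 89.3 in mesoderm and 51.1 in epiblast, an excess over epiblast of at least 1.32-fold, and Kif3a and Nek8 were within 2-fold.

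**Figure D4:**
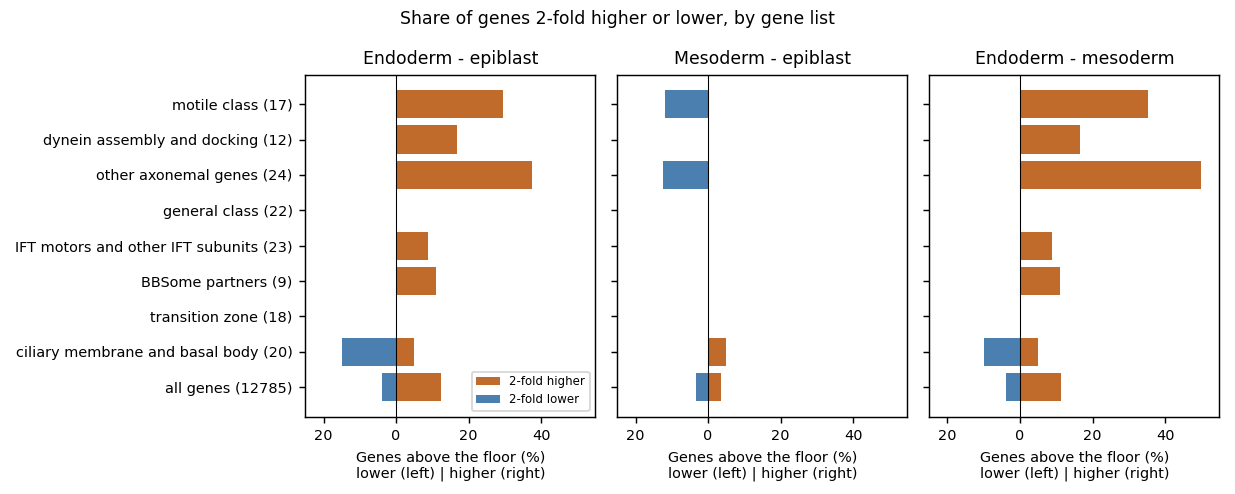
Share of genes above the floor (number in brackets) that were 2-fold higher, to the right of 0, or lower, to the left, for each pair of layers, in the motile and general classes, in further lists of cilium genes and in all genes, from 1 array per layer. The motile class reaches 35.3% higher in endoderm against mesoderm and the general class 0, beside 11.4% of all 12785 genes. Among the motile genes behind this share, Rsph4a, Rsph9, Tekt1, Tekt2 and Tekt4 passed the floor only through endoderm. With dim values raised to the floor 3 of 17 were higher, beside 10.1% of all genes.

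Markers of other cells were read too, and some but not all of them were highest in endoderm. Of 8 node and notochord genes measured, 7 were above the floor in endoderm, 4 in mesoderm and 5 in epiblast. Their intensities summed to 9634, 2237 and 970, carried in endoderm and mesoderm mostly by Cer1 (4344, 1606 and 50.4) and in endoderm also by Foxa2 (3247), which marks endoderm too. Neither is particular to the node, so the sums do not measure node cells. All sums given here add different probe sets, whose intensities cannot be ranked against each other. Foxj1 was itself in the node and notochord list. Shh, the signal of the notochord, was 903 in endoderm, against 122 in mesoderm and 130 in epiblast, Chrd was 250, 84.1 and 102, and Nog was 84.8, 46.95 and 39.0. Dand5, the Nodal antagonist at the edge of the node, was below the floor in all layers, at 74.3, 50.7 and 61.2, and Sec14l3 was highest in epiblast. The 7 visceral endoderm genes were all above the floor in endoderm, with summed intensities of 42042 in endoderm, against 565 in mesoderm and 779 in epiblast. Of 4 parietal endoderm genes, 3 were above the floor in endoderm, 3 in mesoderm and 2 in epiblast. They had sums of 6929, 3293 and 1571. Among them Srgn was 875, 60.4 and 57.4, and Thbd was highest in mesoderm. Of 4 trophoblast genes, Plac1 was 1138 in endoderm, against 306 in mesoderm and 68.2 in epiblast, Hand1 and Tfap2c were within 2-fold and Elf5 was below the floor, and the sums were 1584, 835 and 640. The part of any of these cell types in the values of the motile genes was not tested. Blood markers were below the floor in all layers, and of 4 sperm genes only Tnp1 passed it, at 81.5 in endoderm.

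The promoters of the class were searched for the X-box, the site of RFX factors, because Rfx3 was above the floor in all layers, and for the forkhead letters GTAAACA. Both strands were searched in windows from 250 bases before to 50 after each RefSeq start on GRCm38.p6. A window was at hand for 52 of the 58 genes. The X-box was found for 4 of 29 motile genes (13.8%), 2 of 19 general genes (10.5%) and 1.75% of all 27025 genes with a window. Its arm GTTGCC, which overlaps it, was found for 31% of the motile, 42.1% of the general and 14.1% of all genes, and GTAAACA for 6.9%, 0% and 4.05%. A match is a run of letters and not a shown binding site.
The stretches before the start that hold the X-box, in capitals, are shown for Tekt2, high in endoderm, for the motile genes Spag16, Dnaic1 and Dnaic2, which were within 2-fold or below the floor, and for Ift57, a general gene within 2-fold. For Tekt1 the capitals mark its 2 copies of the arm on opposite strands.
Tekt2, chr4:126325689-126325737, minus strand: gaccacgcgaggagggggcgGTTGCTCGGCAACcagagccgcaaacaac
Spag16, chr1:69826847-69826900, plus strand: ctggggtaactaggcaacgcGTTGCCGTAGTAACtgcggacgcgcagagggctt
Dnaic1, chr4:41569755-41569793, plus strand: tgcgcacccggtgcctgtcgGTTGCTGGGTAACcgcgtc
Dnaic2, chr11:114727366-114727418, plus strand: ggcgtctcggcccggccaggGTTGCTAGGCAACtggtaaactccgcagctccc
Ift57, chr16:49699214-49699266, plus strand: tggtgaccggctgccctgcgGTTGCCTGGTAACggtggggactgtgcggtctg
Tekt1, chr11:72361883-72361932, minus strand: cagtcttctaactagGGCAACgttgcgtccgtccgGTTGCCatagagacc
The X-box ended 16 bases before the nearer start of Tekt2 and 58 before the farther. It ended 20 before the start of Dnaic2, 6 before that of Dnaic1, 89 before that of Spag16 and 47 before that of Ift57, which holds another farther off. Tekt2 was 168 in endoderm, against 35.3 in mesoderm and 77.95 in epiblast, and Ift57 was 461, 334 and 365. Endoderm was the highest layer of both, but only Tekt2 differed by 2-fold between layers. Of the 6 motile genes with a 2-fold difference, 4 had a window, and the X-box was in that of Tekt2 alone.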

How the data were processed

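Total RNA of 3 germ layers was labelled with biotin and read on Affymetrix Mouse Genome 430 2.0 arrays, 1 per layer. The deposited intensity values are linear and were made by the authors, who used Robust Multiarray Average (RMA) to correct and normalize and the affy package to summarise. Versions and any later rescaling are not given in the sources used here. Values ran from 1 to 15688.

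Of 45037 probe sets, 34945 had 1 gene symbol, 932 had several and 9160 none. Symbols were checked through the Entrez identifier in a RefSeq table (34741 probe sets found, 0 altered). For each gene the probe set of highest mean log2 was used. Intensities were converted to log2 and subtracted. The count step was tested on simulated data. Genes are named where above the floor of 80.6 with a 2-fold difference, as the 2 brightest of each kind, as Foxj1, Rfx2 and Rfx3, or as the 3 of widest range in a further list. Others named only complete their families. The members, lists and rules were chosen with earlier results of these data known. Significance Analysis of Microarrays, named in the methods, needs replicates. The 10 alternatives covered the probe set, floor, fold limit and normalization (limma 3.58.1, R 4.3.3, Python 3.11.15).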

Additional observations from a re-analysis of the deposited data

How the results depend on the processing

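The limits are 1 array per layer, values near the floor and 1 probe set for each motile gene called, so the signal over background is low for most of the genes called. Of the recalculated counts and medians of the motile and general classes, 155 stayed within 1.5 times or within the spread between probe sets and 13 did not. With a floor at the 75th percentile 2 motile genes were left, 0 were higher in endoderm than in epiblast or mesoderm, 0 were lower in mesoderm than in epiblast, and the median for endoderm against epiblast was -0.36. This floor leaves few genes to count. Raising dim values to the floor gave motile counts of 2 higher in endoderm against epiblast, 3 higher in endoderm against mesoderm and 1 lower in mesoderm against epiblast. A 3-fold limit gave 0, 2 and 0 for the same counts. With a 1.5-fold limit 1 general gene was lower in endoderm against epiblast and 1 in endoderm against mesoderm. With the mean of probe sets 11 motile genes passed the floor, and their median for endoderm against mesoderm was 1.07, since this choice drops genes with dim second probe sets. Quantile normalization, cyclic loess and centring on the median left the motile counts at 5 higher in endoderm than in epiblast, 6 higher than in mesoderm and 2 lower in mesoderm than in epiblast. Quantile normalization moved the median of all genes above the floor to -0.11 in place of 0.05 for endoderm against epiblast and to -0.08 in place of 0.07 for endoderm against mesoderm, and the share of higher genes among all called became 64.3% in place of 75.7% and 65.8% in place of 74.7%. Of the recalculated differences of named genes, 562 moved by less than the spread between probe sets and 14 by more, of which 10 were bounds from raising dim values and 4 came from the mean of probe sets. No paired analysis was possible because each layer had 1 array.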

Other observations

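Some genes of the list of other axonemal genes, already in its counts, were named after their values were seen. They add no support of their own. Cfap126 was 526 in endoderm, against 82.2 in mesoderm and 156 in epiblast, Capsl was 333, 76.04 and 187, Tppp3 was 271, 64.1 and 71.4, and Nme5 was 140.5, 37.5 and 73.1. Endoderm was the highest layer for all of them, but they were named with this known. Mns1, Ccdc40, Nme7, Ak7 and Efhc2 of the same list were lowest there. Ccno, a cyclin-like gene needed for cells with many cilia, was 250 in endoderm, against 103 in mesoderm and 220 in epiblast, and so resembled Rsph1 in having mesoderm as the low layer.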
